A study of Drosophila melanogaster with 6 samples.

Results

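The genes of the large (60S) subunit of the cytosolic ribosome were described in S2R+ cells, an established Drosophila melanogaster line of late embryonic origin, from total RNA. Members were all genes whose name is RpL followed by a number, or RpLP followed by a number, which gave 54 of the 23932 genes in the tables, with paralogues included and mitochondrial mRpL genes left out. The rule used names alone and no measured value. RNA interference was directed at bacterial lacZ, which the cells lack, in 3 control libraries (dsLacZ) and at Fibrillarin, which methylates RNA within box C/D snoRNA particles, in 3 others (dsFib). All 6 came from the same line, without any other treatment in the labels, and were made by TGIRT-seq after depletion of ribosomal RNA. TGIRT is a heat-stable reverse transcriptase that reads structured small RNAs and mRNAs alike. Separate cultures are not stated in the labels, so the p-values measure a spread between libraries that may be technical. In bulk RNA, fewer cells of a type and less RNA per cell cannot be told apart.

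Each 60S subunit holds 1 copy of nearly every large subunit protein, arranged around the large ribosomal RNAs, with a flexible stalk of acidic P proteins as the usual exception. The proteins are made in the cytoplasm, imported into the nucleus and built onto the ribosomal RNA precursor in the nucleolus, where Fibrillarin also acts. Loss of 1 copy of many of these genes gives the Minute phenotype of flies, with slow development and thin bristles. Introns of several of them hold snoRNA genes, which are released when the host transcript is spliced. Expression is given as CPM, the count scaled to a fixed library total with TMM factors, and fold changes are those of edgeR's quasi-likelihood test with Benjamini-Hochberg adjustment over the 8302 genes that passed a filter on low counts, with a threshold of 0.05.

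Fib, the targeted gene, was 4.67-fold higher in the libraries labelled dsFib (adjusted p = 0.00103, edgeR), with 214, 257 and 227 CPM in controls against 1312, 955 and 994 CPM under the dsFib label. Its counts go against the label, and whether they measure Fib mRNA was not tested. Every direction given here is therefore that of libraries labelled dsFib over controls. Depth was 11695250 to 15172052 counts per library. One control library, dsLacZ replicate 2, stood apart: tRNA took 18.3% of its counts against 10.8% to 15.3% in the other 5, and values that move much without it are given both ways for the members named. Of 11 markers listed for S2R+ cells, 9 had at least 10 counts in some library, led by the scavenger receptor gene crq at 30.8 to 48.4 TPM. Hml and eater, among the 9, reached at most 0.529 and 0.171 TPM. He was at 0, and NimC1 reached at most 0.127 TPM. Summed over the list, S2R+ markers had 45.7 to 70.3 TPM, most of it from crq. Summed over their lists, muscle markers reached at most 0.132 TPM and fat body markers 0.0326 TPM, while germline markers had 12.8 to 23.2 TPM, with aub at 11.7 to 20.3 TPM. Neuron markers summed to 3.58 to 6.29 TPM and gut markers to 0.567 to 1.15 TPM. At least 10 counts in some library were reached by 4 of 4 germline, 2 of 3 neuron and 1 of 2 gut markers. For muscle and for fat body it was 0 of 3.

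Of the 54 members, 50 passed the filter and 4 had 0 counts in all 6 libraries. Most of the 50 lay somewhat higher under the dsFib label. The log2 fold change was above 0 for 44 and below 0 for 6, against 48.3% above 0 among all genes tested. Its median was 0.26 over the 50 members and -0.01 over all genes. Without dsLacZ replicate 2 the counts were again 44 and 6, and the median was 0.26. With libraries scaled by total counts alone, 42 lay above 0 and 8 below, and the median was 0.22 against -0.05 for all genes.

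Single genes seldom passed the test. RpL17 alone rose, which is 1 of 50 members against 0.53% of all genes called higher, and 0 fell against 0.373% of all genes. DESeq2 called 8 members higher (1.85% of all genes) and 0 lower (1.23%). Limma-voom called 2 higher (0.482%) and 0 lower (0.325%). With no filter on low counts edgeR called 6 higher (1.25%) and 0 lower (0.868%). Without dsLacZ replicate 2 it called 6 higher (2.59%) and 1 lower (1.04%). With any other single library left out it called 0 members, where 0.0117% to 0.646% of all genes were called higher. Before adjustment, at p under 0.05, 25 members were higher and 2 lower, where all genes gave 7.67% and 8.26%. The groups did not overlap for 28 members, 26 of them higher in the libraries labelled dsFib (11% of all genes) and 2 lower (12.1%). Leaving out dsLacZ replicate 2 made these 35 higher (17.3%) and 4 lower (18%).

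**Figure D1:**
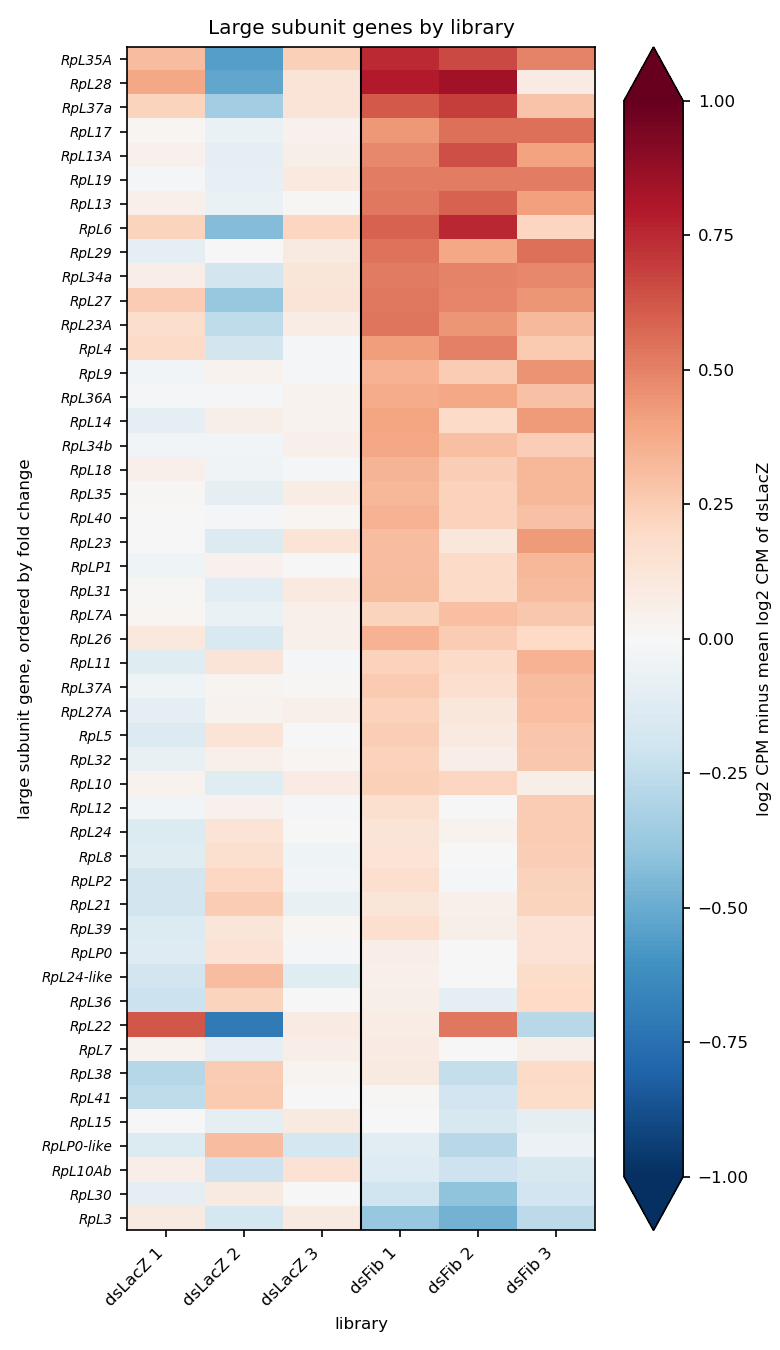
Heat map of 49 of the 50 tested large subunit genes (rows, ordered by fold change) in the 6 libraries (columns). Colour is the log2 CPM minus the mean log2 CPM of the 3 dsLacZ libraries, with values past 1 in either direction drawn in the end colours. Most rows are red in all 3 libraries labelled dsFib, RpL3 and RpL30 at the bottom are blue there, and dsLacZ replicate 2 is the bluest control library in rows such as RpL35A and RpL22.

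RpL17, whose protein lines the tunnel through which the nascent chain leaves the ribosome, was the member that rose. The gene (FBgn0029897; X, 6741537 to 6744238, minus strand, dm6) had 167, 158 and 169 CPM in controls 1, 2 and 3 against 223, 241 and 241 CPM in dsFib-labelled libraries 1, 2 and 3. The groups did not overlap, and the spread within each was small beside the 1.43-fold difference (log2 fold change 0.51, SE 0.09, adjusted p = 0.0426, edgeR, 3 libraries per group). Without dsLacZ replicate 2 the log2 fold change was 0.48 (adjusted p = 0.0203). Leaving out any other library, or scaling by total counts alone, ended the call, with log2 fold changes of 0.47 to 0.55 and adjusted p-values of 0.057 to 0.206.

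RpL17 stood among 6 members with nearly the same log2 fold change, 0.49 to 0.51, and tight groups. RpL19, another protein at the tunnel exit, had 422, 401 and 454 CPM in controls against 605.5, 606.5 and 605.7 CPM under the dsFib label. All 3 libraries labelled dsFib lay above the controls and close to each other (log2 fold change 0.51, SE 0.10, adjusted p = 0.0546). RpL13 had 474, 436 and 462 CPM in controls against 658, 689 and 606 CPM under the dsFib label (log2 fold change 0.51, SE 0.10, adjusted p = 0.0601). RpL13A, whose human counterpart also acts outside the ribosome in a complex that silences inflammatory mRNAs, had 232, 211 and 235 CPM in controls against 315, 352 and 299 CPM under the dsFib label (log2 fold change 0.51, SE 0.10, adjusted p = 0.0624). In both genes every library labelled dsFib was higher than every control library. RpL29, a small basic protein near the catalytic centre, had 336, 360.4 and 383 CPM in controls against 524, 471 and 526 CPM under the dsFib label (log2 fold change 0.50, SE 0.10, adjusted p = 0.0646). RpL34a, 1 of 2 genes for the same protein, had 121, 102 and 126 CPM in controls against 165, 163 and 162 CPM under the dsFib label (log2 fold change 0.49, SE 0.10, adjusted p = 0.0666). RpL29 and RpL34a likewise had no overlap between groups. The 5 besides RpL17 missed the edgeR threshold and passed DESeq2 (adjusted p of 0.000217 to 0.00871). They also passed edgeR without dsLacZ replicate 2, with log2 fold changes of 0.40 to 0.50 and adjusted p-values of 0.0243 to 0.0333.

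Next by p came RpL36A, which sits at the exit site for tRNA, and RpL9, which lies near the site where elongation factors bind. RpL36A had 189, 189 and 196 CPM in controls against 248, 249 and 234 CPM under the dsFib label (log2 fold change 0.35, SE 0.09, adjusted p = 0.103), and RpL9 had 1269, 1329 and 1284 CPM in controls against 1651, 1539 and 1767 CPM under the dsFib label (log2 fold change 0.35, SE 0.11, adjusted p = 0.179). Both had separate groups, and both passed DESeq2 (adjusted p = 0.0301 and 0.0394) but not edgeR. RpL23A, where the signal recognition particle docks, had 598, 445 and 559 CPM in controls against 766, 721 and 664 CPM under the dsFib label (log2 fold change 0.42, SE 0.13, adjusted p = 0.184). Without dsLacZ replicate 2, its lowest control, RpL23A was at 0.31. Its value is uncertain because the noncoding snoRNA host gene Uhg7 lies within it on the same strand. RpL34b, the second gene for its protein, had 722, 721 and 763 CPM in controls against 963, 903 and 873 CPM under the dsFib label (log2 fold change 0.31, SE 0.10, adjusted p = 0.195).

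The opposite end held RpL3 and RpL30. RpL3 reaches into the catalytic centre of the ribosome and is among the first proteins to join the assembling subunit in yeast. The gene (3R, 11221894 to 11225173, plus strand, dm6) had 2409, 2001 and 2413 CPM in controls 1, 2 and 3 against 1744, 1633 and 1888 CPM in dsFib-labelled libraries 1, 2 and 3. The 3 dsFib-labelled values were all below the lowest control, but the difference did not pass with all 6 libraries (log2 fold change -0.37, SE 0.13, adjusted p = 0.214, edgeR). Without dsLacZ replicate 2, its lowest control, RpL3 fell (log2 fold change -0.46, adjusted p = 0.0408). It was the single member called lower in any of the alternatives run. RpL30, which in yeast controls the splicing of its own transcript, had 552, 630.2 and 593 CPM in controls against 514, 446 and 517 CPM under the dsFib label. Its groups did not overlap either (log2 fold change -0.26, SE 0.11, adjusted p = 0.288; -0.22 without dsLacZ replicate 2). The third lowest was RpL10Ab, the protein of the L1 stalk, which moves spent tRNA out of the ribosome. It had 1278, 1057 and 1352 CPM in controls against 1120.00, 1059 and 1094 CPM under the dsFib label, with overlapping groups (log2 fold change -0.17, SE 0.12, adjusted p = 0.547; -0.27 without dsLacZ replicate 2, its lowest control). The remaining members below 0 were RpLP0-like at -0.16 (SE 0.14), RpL15 at -0.08 (SE 0.11) and RpL41 at -0.0047 (SE 0.16). Leaving out dsLacZ replicate 2 put these 3 at 0.012, -0.13 and 0.14.

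**Figure D2:**
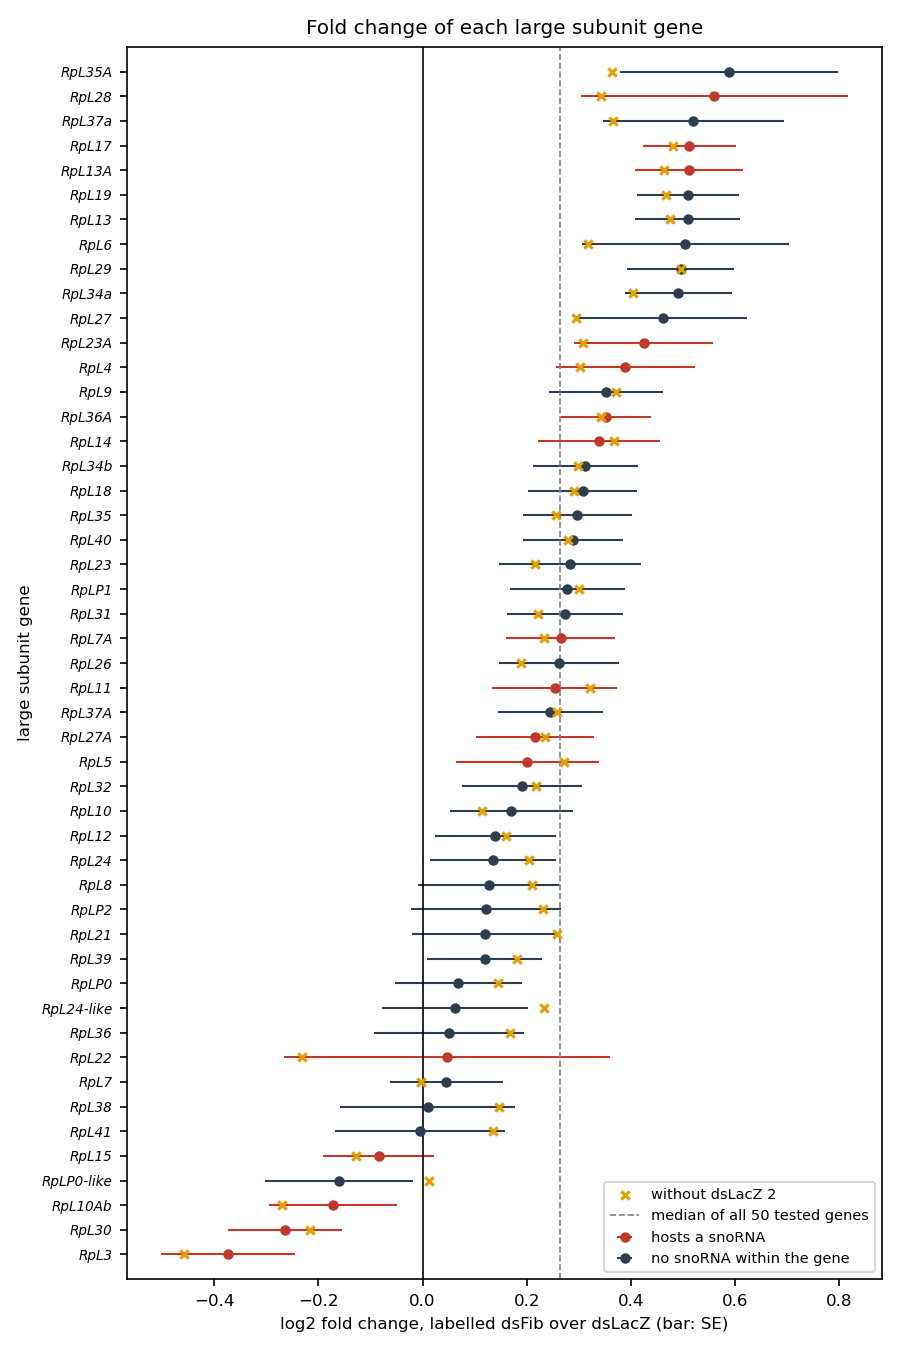
Log2 fold change (x axis, libraries labelled dsFib over dsLacZ) of 49 of the 50 tested large subunit genes (y axis, ordered by value), with bars of 1 SE. Red points are genes that hold a snoRNA, dark points those that do not, and orange crosses give the value without dsLacZ replicate 2. The dashed line is the median of 0.26 over all 50, and RpL3 lies lowest at -0.37. Crosses fall well left of the points for RpL35A and RpL28, and stay close to them for RpL17, RpL19, RpL13 and RpL29.

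Members can be read by place in the subunit, beginning with the proteins of the exit tunnel and around its end, where nascent chains meet chaperones and targeting factors. Of 8 genes listed there, all 8 had a log2 fold change above 0 (48.3% of all genes), the groups did not overlap for 7, all higher (11% of all genes), and 1 (RpL17) rose (0.53% of all genes). The median was 0.34, and 0.28 without dsLacZ replicate 2. Besides RpL17, RpL19 and RpL23A, these were RpL4 at 0.39 (SE 0.13), RpL35 at 0.30 (SE 0.10), RpL31 at 0.27 (SE 0.11), RpL26 at 0.26 (SE 0.12) and RpL39 at 0.12 (SE 0.11). Leaving out dsLacZ replicate 2 put RpL4 at 0.30, RpL31 at 0.22 and RpL26 at 0.19. RpL4, which forms the narrow part of the tunnel, had 1184, 912 and 1029 CPM in controls against 1387, 1467 and 1239.98 CPM under the dsFib label. RpL35 had 882, 825 and 922 CPM in controls against 1101, 1029 and 1102 CPM under the dsFib label, and RpL31 had 1225, 1131 and 1305 CPM in controls against 1515, 1395 and 1515 CPM under the dsFib label. In these 3 genes each library labelled dsFib exceeded all controls. RpL26 had 1071, 892 and 1027 CPM in controls against 1262, 1185 and 1141 CPM under the dsFib label, also with separate groups. RpL39, the shortest of them, was the exception, with 759, 907 and 844 CPM in controls against 939, 867 and 919.7 CPM under the dsFib label, and dsLacZ replicate 2 lay among the libraries labelled dsFib (log2 fold change 0.18 without it).

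The P stalk recruits and activates the translation factors that hydrolyse GTP. RpLP0 anchors it, RpLP1 and RpLP2 form its arms, and RpL12 lies at its base. RpLP1 had 1768, 1883 and 1826 CPM in controls against 2266, 2083 and 2293 CPM under the dsFib label, so that the groups did not overlap (log2 fold change 0.28, SE 0.11, adjusted p = 0.268). Its partner RpLP2 had 2522, 3299.9 and 2814 CPM in controls against 3219.8, 2826 and 3351 CPM under the dsFib label, with dsLacZ replicate 2 near the highest value (log2 fold change 0.12, SE 0.14, adjusted p = 0.732; 0.23 without it). RpLP0 had 1904, 2297 and 2055 CPM in controls against 2176, 2087 and 2299 CPM under the dsFib label (log2 fold change 0.07, SE 0.12, adjusted p = 0.831; 0.14 without dsLacZ replicate 2). RpL12 had 1773, 1857 and 1784 CPM in controls against 2014, 1803 and 2146 CPM under the dsFib label (log2 fold change 0.14, SE 0.12, adjusted p = 0.619). Of the 4 genes, 0 passed edgeR, DESeq2 or limma-voom. Before adjustment 1 (RpLP1) was higher at 0.05 by edgeR (7.67% of all genes). The median log2 fold change was 0.13 (0.20 without dsLacZ replicate 2).

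RpL5 and RpL11 bind 5S ribosomal RNA before it joins the subunit, and in mammals the free particle binds the p53 regulator Mdm2. RpL5, the most highly counted member, had 4931, 5946 and 5395 CPM in controls against 6411, 5750.1 and 6549 CPM under the dsFib label (log2 fold change 0.20, SE 0.14, adjusted p = 0.521). RpL11 had 1527, 1813 and 1643 CPM in controls against 1941, 1887 and 2113 CPM under the dsFib label (log2 fold change 0.25, SE 0.12, adjusted p = 0.344). The groups overlapped for RpL5, through dsLacZ replicate 2, and not for RpL11. Neither passed the test, and both had a larger log2 fold change without dsLacZ replicate 2, at 0.27 and 0.32.

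Among 5 genes for proteins at or near the catalytic centre, RpL29 and RpL36A lay at the upper end and RpL3 at the lower. RpL8 was at 0.13 (SE 0.14) and RpL10, which joins late in the cytoplasm, at 0.17 (SE 0.12), or 0.21 and 0.11 without dsLacZ replicate 2. The group held 2 members with separate groups toward higher levels (11% of all genes) and 1 toward lower (12.1%). Genes for late joining and bridging proteins were RpL40, which is made as a fusion to ubiquitin, at 0.29 (SE 0.10), RpL23, to which the anti-association factor eIF6 binds, at 0.28 (SE 0.14), RpL24 at 0.14 (SE 0.12) and RpL41 near 0. RpL23, RpL24 and RpL41 had 0.22, 0.20 and 0.14 without dsLacZ replicate 2. RpL40 had 586, 579 and 594 CPM in controls against 744, 688 and 718 CPM under the dsFib label, without overlap. By edgeR, DESeq2 and limma-voom 0 of the 4 were called, and before adjustment 1 (RpL40) was higher at 0.05 (7.67% of all genes). RpL32, known as rp49 and widely used as a reference gene in fly RT-PCR, had 1685, 1839 and 1799 CPM in controls against 2076, 1860.5 and 2141 CPM under the dsFib label. All 3 libraries labelled dsFib lay above the controls, by a log2 fold change of 0.19 (SE 0.12) that did not pass the test (adjusted p = 0.456).

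Several members were not placed in a group. RpL14, RpL18, RpL7A, RpL37A and RpL27A had no overlap between groups, with log2 fold changes of 0.34, 0.31, 0.27, 0.25 and 0.22. RpL21, RpL36 and RpL38 overlapped, at 0.12 (SE 0.14), 0.05 (SE 0.14) and 0.01 (SE 0.17). With dsLacZ replicate 2 left out they were at 0.26, 0.17 and 0.15, and RpL36 and RpL38 lay below 0 with dsFib-labelled library 3 left out (-0.02 and -0.08). Of the 54 genes, 17 overlap another protein-coding gene, 16 of them on the opposite strand. They include RpL29, RpL36A, RpL30, RpL10Ab, RpL28 and RpL31. Whether counting used the strand is not stated, so reads of such partners may be shared and those values are uncertain.

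Some members with large fold changes were not among those with the smallest p. RpL35A had 620.3, 343 and 592 CPM in controls against 839.9, 792 and 708 CPM under the dsFib label (log2 fold change 0.59, SE 0.21, adjusted p = 0.225; 0.36 without dsLacZ replicate 2). RpL28 had 208, 111 and 174 CPM in controls against 275, 285 and 168 CPM under the dsFib label (log2 fold change 0.56, SE 0.26, adjusted p = 0.331; 0.34 without it). RpL6, which had 206, 130.1 and 204 CPM in controls against 265, 297 and 204 CPM under the dsFib label, and RpL27, which had 1025, 662 and 942 CPM in controls against 1239, 1208 and 1173 CPM under the dsFib label, also had dsLacZ replicate 2 as the lowest library, with log2 fold changes of 0.51 and 0.46 that went to 0.32 and 0.29. RpL22 had 163, 64.7 and 112 CPM in controls against 111, 152 and 87.3 CPM under the dsFib label, with dsLacZ replicate 2 lowest of all 6, and a log2 fold change of 0.05 (SE 0.31) that was -0.23 without dsLacZ replicate 2. Its values are uncertain, since lncRNA:CR42491 lies on the same strand and overlaps an exon of its transcript.

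This unevenness was shared between 2 libraries of different groups, a comparison chosen after the values were seen. Relative to the other 2 controls, dsLacZ replicate 2 was more than 1.3-fold lower for 7 members and more than 1.3-fold higher for 5. Among the lower ones were RpL22 at -1.06, RpL35A at -0.82, RpL28 at -0.78 and RpL6 at -0.65 (differences in log2 CPM), and the highest were RpLP0-like at 0.47 and RpL24-like at 0.46. The third library labelled dsFib departed from its own group at several of these members: RpL28 was at -0.73, RpL22 at -0.58 and RpL6 at -0.46, with RpL35A at -0.20 and RpL27 close to its group at -0.06. Across the 50 members, which share libraries and are not replicates, the 2 sets of differences had Pearson's r of 0.85 and Spearman's rho of 0.79. The values were 0.89 and 0.85 over 35 small subunit genes and 0.21 and 0.28 over all 8302 genes tested. The part of these departures in the fold changes of the members was measured only by leaving out each library.

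**Figure D3:**
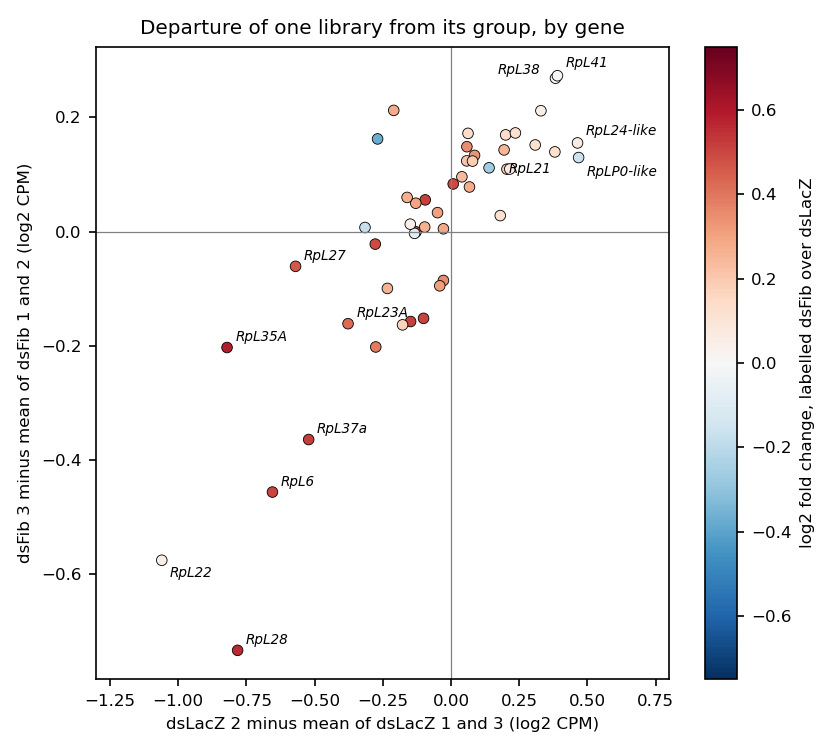
Scatter of 49 of the 50 tested large subunit genes. The x axis is the log2 CPM in dsLacZ replicate 2 minus the mean of dsLacZ replicates 1 and 3, the y axis the same for dsFib replicate 3 against dsFib replicates 1 and 2 (as labelled), and colour is the log2 fold change between the groups. RpL22, RpL28 and RpL6 lie low on both axes, RpL38 and RpL41 high on both.

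As a whole, large subunit genes took 6.37, 5.33 and 6.19% of the counts of dsLacZ replicates 1, 2 and 3 and 6.61, 6.67 and 6.59% of those labelled dsFib. The means were 5.96% ± 0.556 and 6.62% ± 0.0422 (SD, n = 3), and the groups did not overlap. Without dsLacZ replicate 2 the difference went from 0.657 to 0.341 percentage points. Of protein-coding counts alone they took 10.1, 10.7 and 10.5% and 11.8, 11.1 and 11.9%, again without overlap and with dsLacZ replicate 2 now the highest control. Relative to the small subunit the summed level hardly differed, as the log2 ratio of large to small subunit counts was 0.486 ± 0.0331 in controls and 0.486 ± 0.0203 under the dsFib label. Of 35 tested small subunit genes, 31 lay above 0 with a median of 0.23, whereas of 46 genes for the mitochondrial large subunit 25 lay above 0 with a median of 0.0028. Whether these lists differ was not tested.

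Within the large subunit set, composition can be read without scaling, as each member's share of the counts of all members. This share was higher in every library labelled dsFib than in every control for 14 members and lower for 6, of 50 tested. By CPM, groups did not overlap for 11% of all genes toward higher levels and 12.1% toward lower. The 6 lower members are near the 12.1%, but that value is by CPM and theirs by share within the set, so the measures differ. Shares add up to a fixed total, so a rise of some members lowers the share of others. The 6 were RpL3, RpL30, RpL10Ab, RpLP0-like, RpL15 and RpLP0. Of these, only RpL3 and RpL30 had separate groups by CPM. RpL3 took 4.23, 3.35 and 4.03% of large subunit counts in dsLacZ and 2.55, 2.56 and 2.73% in the libraries labelled dsFib, a mean log2 difference of -0.56. RpL30 took 0.968, 1.06 and 0.99% and 0.752, 0.699 and 0.748%, a difference of -0.45. RpL17 went the other way, with 0.293, 0.264 and 0.283% and 0.326, 0.378 and 0.349%. The genes RpL19, RpL13, RpL13A, RpL29, RpL34a, RpL36A and RpL9 were also among the 14.

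Although their proteins are needed in nearly equal numbers, the transcripts differed widely in level per length, for which the deposited TPM was used. By the mean over all 6 libraries the highest were RpL41, the gene of the shortest ribosomal protein, with 2382 ± 205 TPM in controls and 2239 ± 95.7 TPM under the dsFib label (mean ± SD, n = 3), RpL5 with 2113 ± 328 TPM in controls and 2268 ± 70.7 TPM under the dsFib label, and RpL23 with 1938 ± 568 TPM in controls and 2143 ± 42.9 TPM under the dsFib label. RpL41 and RpL5 held the first 2 ranks in every library. RpL41 was above RpL5 in all 3 controls and dsFib-labelled library 3, and below it in dsFib-labelled libraries 1 and 2. RpL23 ranked 3 to 5, and in controls RpLP2 had the higher mean, at 1985 TPM. Of the 50 members, 14 had a mean above 1000 TPM and 10 below 200 TPM. RpL17 had 84.4 ± 22.5 TPM in controls and 111 ± 14.0 TPM under the dsFib label, RpL34a had 83.1 ± 26.5 TPM in controls and 106 ± 11.0 TPM under the dsFib label and RpL6 had 87.3 ± 37.4 TPM in controls and 112 ± 31.0 TPM under the dsFib label. These 3 kept ranks 45 to 48 of 50 in all libraries, and in TPM the groups overlapped for each of them. Lowest of those without a -like name was RpL22, with 46.8 ± 28.9 TPM in controls and 42.7 ± 16.5 TPM under the dsFib label. TPM is scaled to a total that small RNAs share, and dsLacZ replicate 2 was the lowest control for all 50 members, so levels are compared here between genes and not between groups. The lengths behind the deposited TPM are not stated. CPM per length of the shortest annotated transcript gave nearly the same order (Spearman's rho 0.98 over 50 members).

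**Figure D4:**
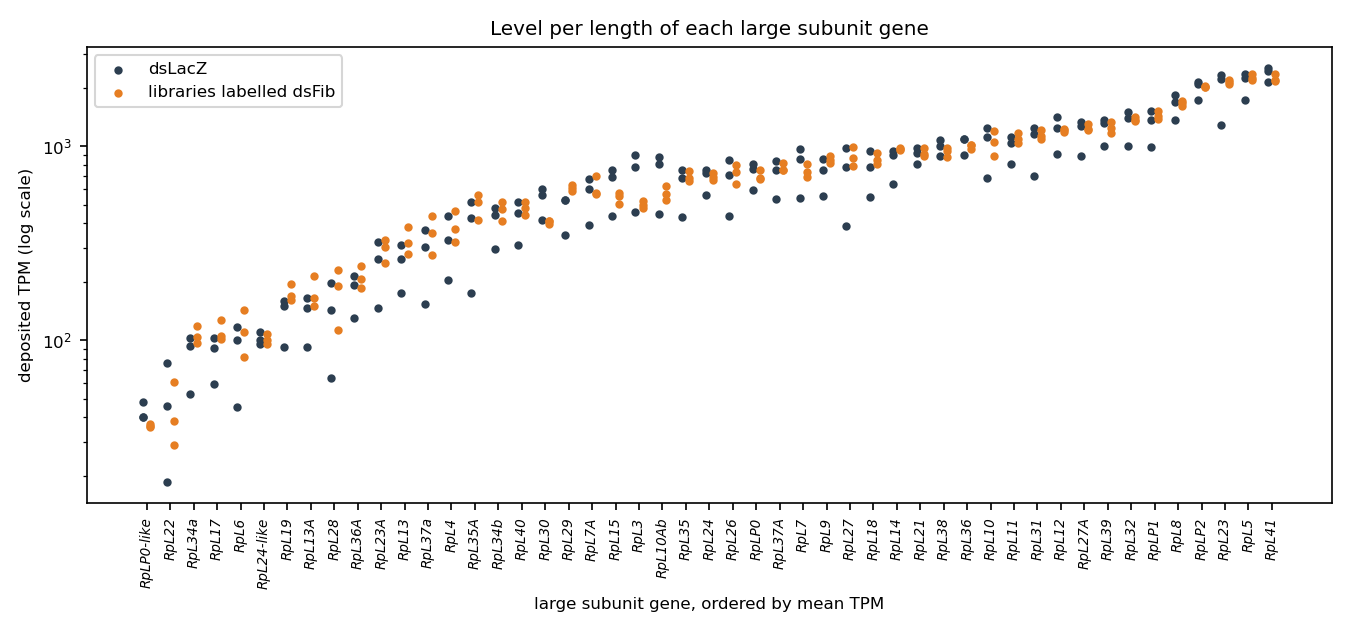
Deposited TPM (y axis, log scale) of 49 of the 50 tested large subunit genes (x axis, ordered by mean TPM) in each of the 3 dsLacZ libraries (dark) and the 3 labelled dsFib (orange). Levels run from 39.5 TPM for RpLP0-like to 2310.5 TPM for RpL41 as means over 6 libraries. The lowest dark point of every gene shown is dsLacZ replicate 2.

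Members with lower TPM tended to have larger fold changes, a relation that was weak. The least abundant, RpLP0-like at -0.16 and RpL22 at 0.05, went against it. The members with the lowest mean TPM (16 genes, 39.5 to 436 TPM) had a median log2 fold change of 0.51, the middle 18 genes 0.26, and the 16 highest (916 to 2310.5 TPM) 0.16. Leaving out dsLacZ replicate 2 gave medians of 0.35, 0.24 and 0.22. Spearman's rho between log2 fold change and mean TPM was -0.39 over the 50 members (Pearson's r with log2 TPM -0.25), -0.36 without dsLacZ replicate 2 (Pearson's r -0.09), -0.15 over 35 small subunit genes and -0.11 over 7035 protein-coding genes. These are descriptions across genes of the same libraries. The length of the exons had almost no relation to fold change (rho -0.01). The ratio of the counts of the 16 lowest to those of the 16 highest also differed among controls, with log2 values of -2.29, -2.91 and -2.51 in dsLacZ replicates 1, 2 and 3 and -2.25, -2.06 and -2.50 in the libraries labelled dsFib.

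Paralogues of large subunit genes were of 3 kinds. The 4 genes, RpL10Aa, RpL7-like, RpL22-like and RpL37b, had 0 counts in every library, which allows up to 3 counts per library, or 0.208 to 0.265 CPM, for counting error alone. Their partners RpL10Ab, RpL7, RpL22 and RpL37a were all present, with RpL7 at 1679, 1530.1 and 1715 CPM in controls against 1737, 1641 and 1704 CPM under the dsFib label (log2 fold change 0.05, or -0.0025 without dsLacZ replicate 2). RpL37a, not to be confused with RpL37A, the gene of a different protein, had 931, 628 and 874 CPM in controls against 1221, 1293 and 976 CPM under the dsFib label (log2 fold change 0.52, SE 0.17, adjusted p = 0.209; 0.37 without dsLacZ replicate 2). Both RpL34 genes were expressed. RpL34b had 407 ± 98.8 TPM in controls and 466 ± 52.2 TPM under the dsFib label, which places it above RpL34a in every library, and log2 fold changes were 0.31 (SE 0.10) and 0.49 (SE 0.10). Reads of near-identical stretches can be split between copies in counting, so the values of such pairs are uncertain. The 0 of RpL7-like is uncertain also because the protein-coding gene CG34164 overlaps it on the same strand.

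The third kind has taken on another role. The yeast counterparts of RpL24-like and RpLP0-like hold places on the assembling subunit that RpL24 and RpLP0 fill later, and are assembly factors. RpL24-like had 166, 233 and 173 CPM in controls against 195, 188 and 214 CPM under the dsFib label, and RpLP0-like had 88.1, 120.1 and 85.5 CPM in controls against 90.1, 79.9 and 92.8 CPM under the dsFib label. In both genes dsLacZ replicate 2 was the highest library and the groups overlapped. Their log2 fold changes were 0.06 (SE 0.14) and -0.16 (SE 0.14), and 0.23 and 0.012 without dsLacZ replicate 2. Per length they stood at 102 ± 7.78 TPM in controls and 101 ± 5.69 TPM under the dsFib label for RpL24-like, against 679.6 ± 106 TPM in controls and 697 ± 29.4 TPM under the dsFib label for RpL24, which had 1158, 1397 and 1277 CPM in controls against 1392, 1304 and 1514 CPM under the dsFib label.

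Of the 54 members, 16 hold 1 or more annotated snoRNA genes on the same strand, 33 in all, 21 of box C/D in 9 hosts and 12 of box H/ACA in 8. RpL3 holds both. Among the 9 hosts of the box C/D class 6 lay above 0 and 0 passed edgeR, with a median of 0.27 for the log2 fold change, while of the 20 tested snoRNAs within them 18 lay below 0 and 3 fell (0.373% of all genes were called lower), the median being -0.91. Control replicate 2 was the highest control for 12 of the 20. Leaving it out, 18 again lay below 0, 10 fell (1.04% of all genes) and the median was -0.75. The 7 that host box H/ACA snoRNAs alone had a median of 0.25 and 1 that rose (RpL17), against 0.53% of all genes. The 12 box H/ACA snoRNAs had a median of 0.08 and 4 below 0, or 0.18 and 1 without dsLacZ replicate 2, the highest control for 11 of them.

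The widest gap was in RpL15, at -0.08, within which snoRNA:Me18S-G1358c fell by 2.94 on the log2 scale (adjusted p = 0.00515, edgeR) (log2 fold change -2.62 without dsLacZ replicate 2). RpL28 was close to it. The host had a log2 fold change of 0.56 (SE 0.26), and its 5 snoRNAs lay between -2.23 (snoRNA:Or-CD11b, which fell, edgeR adjusted p = 0.0185) and -0.79 (snoRNA:Or-CD12), or -1.83 to -0.35 without dsLacZ replicate 2. RpL13A, at 0.51, holds snoRNA:Me28S-U2134a at -1.85 and snoRNA:Me28S-U2134b at -0.93. Without dsLacZ replicate 2 both of these snoRNAs fell (edgeR adjusted p = 0.0393 and 0.0432). In RpL30 both were below 0, the host at -0.26 and snoRNA:Me28S-A2113 at -1.03, which fell without dsLacZ replicate 2 (edgeR adjusted p = 0.0318). In RpL3 the box H/ACA guide snoRNA:Psi28S-291 was at 0.14, above its host, and the 3 box C/D guides lay between -0.90 and -0.27, or -0.80 and -0.53 without dsLacZ replicate 2. RpL17 holds 4 box H/ACA guides, of which the most counted, snoRNA:Psi28S-1060, was at 0.17 (SE 0.13), or 0.06 without dsLacZ replicate 2. Of the 6 members with a log2 fold change below 0, 4 were hosts (RpL3, RpL30, RpL10Ab and RpL15), against 16 hosts among the 50 tested. Some of these values were near 0. Without dsLacZ replicate 2, RpL7 and the host RpL22 were below 0 in place of RpLP0-like and RpL41. Hosts as a whole had a median of 0.26 and the 34 tested members without a snoRNA a median of 0.27. Some of these snoRNAs overlap an annotated exon of a host transcript, as in RpL15, where the counting of host and snoRNA cannot be told apart from these tables.

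**Figure D5:**
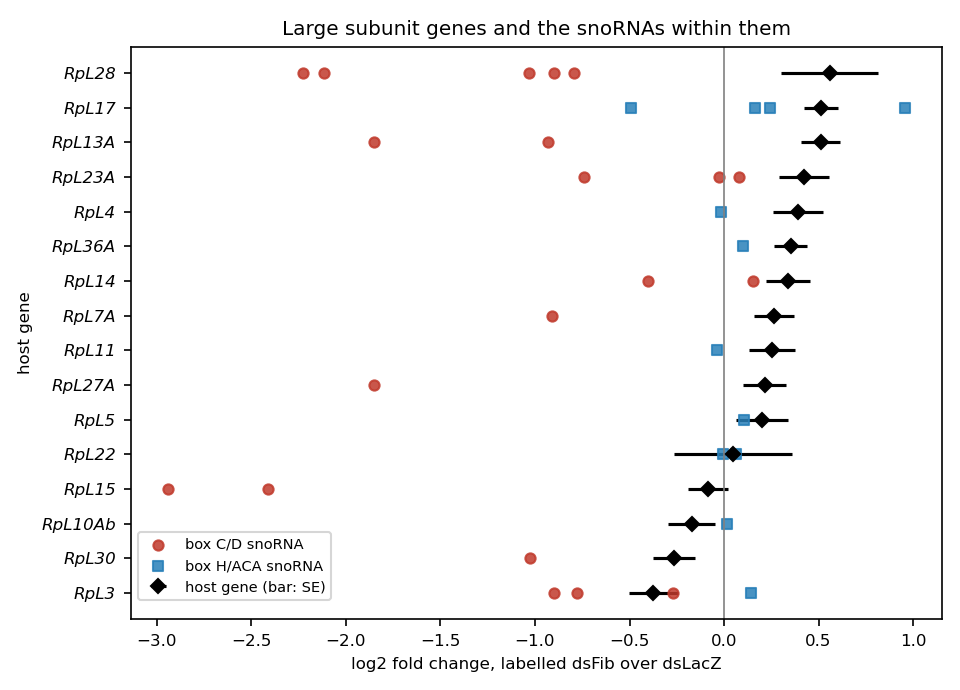
Log2 fold change (x axis, libraries labelled dsFib over dsLacZ) of the 16 large subunit genes that hold snoRNAs (black diamonds, bars of 1 SE; y axis, ordered by host value) and of the tested snoRNAs within each (red circles for box C/D, blue squares for box H/ACA). Red circles lie left of their host in all 9 hosts of box C/D snoRNAs except for 1 circle of RpL3, and the blue squares lie between -0.49 and 0.96.

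Genes that act on the large subunit were read in the same way. Of 15 listed factors of 60S assembly and export, 12 lay above 0 and the median log2 fold change was 0.19, and 0 passed edgeR or limma-voom. DESeq2 called 1 higher (1.85% of all genes). Without adjustment, edgeR gave 5 higher (7.67% of all genes) and 0 lower (8.26%) at p under 0.05. The smallest p belonged to CG33158, whose counterpart in yeast and humans is the GTPase that releases eIF6 from the new subunit, with 65.0, 67.9 and 68.1 CPM in controls against 83.2, 90.7 and 97.4 CPM under the dsFib label (log2 fold change 0.43, adjusted p = 0.0753). Its groups did not overlap. Nnp-1 and Non1 followed at 0.28 and 0.29, and eIF6 itself had 58.8, 47.8 and 52.9 CPM in controls against 79.3, 65.4 and 61.6 CPM under the dsFib label. Of 13 listed regulators of ribosomal protein genes or of growth, 8 lay above 0, with a median of 0.12 (0.04 without dsLacZ replicate 2), and 0 passed edgeR, DESeq2, limma-voom or an unadjusted p of 0.05. Trf2, which replaces the TATA-binding protein at ribosomal protein promoters in flies, was at 0.30, the growth regulator Myc at 0.25 and M1BP, which binds such promoters, at -0.26 (adjusted p of 0.334, 0.36 and 0.371).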

How the data were processed

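TGIRT-seq libraries of 6 samples, 3 per group by their titles, were analysed. The tools listed in the submitters' processing notes are cutadapt 3.4, Bowtie2 and STAR, with build dm6 and no stated roles. CoCo appears in the table names, and its version, annotation and strand setting are not stated. Per the file headers, the deposited values per gene are estimated counts, CPM and TPM. Of the authors' estimated counts, 7.19% to 9.38% per library were fractional, and they were rounded to whole numbers. The deposited CPM equals the count divided by the library total, and the deposited TPM was used for levels per length alone.

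Counts were analysed with edgeR 4.0.16 in R 4.3.3 (filterByExpr, TMM, quasi-likelihood test, group as the single term, adjustment over all 8302 genes tested). SE is the log2 coefficient divided by the square root of F. The method was tested on simulated data with independent libraries, with median fold changes as the check. Departures shared between libraries were not simulated, so the test does not bear on them. Coordinates and nested snoRNAs came from the Ensembl annotation of BDGP6 (dm6 coordinates), which held all 54 members. Counts within a group differed between every pair of libraries by more than sampling noise (chi-square per degree of freedom 12.4 to 96.7). Depth sets intervals and floors for counting error only.

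Values in every library are given for members past the threshold, the 10 with the smallest p, the 3 lowest fold changes with a mean CPM of at least 5, paralogues, both stalks, the 5S particle and the tunnel exit. Of other lists, the 3 genes with the smallest p are named. Genes named beyond these were chosen after their values were seen. Values of 1 tested member are not reported here and the figures leave it out, while counts and medians include it. Members and lists were chosen with earlier results of these data known. Alternatives were other scalings, DESeq2 1.42.0, limma-voom 3.58.1, other filters on low counts, a replicate block and leaving out each library.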

Additional observations from a re-analysis of the deposited data

How the results depend on the processing

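The median log2 fold change of large subunit genes stayed above 0 in every alternative run, at 0.24 to 0.30 with single libraries left out. The share of counts taken by these genes does not depend on scaling, filter or tool. As its groups did not overlap, leaving out a single library cannot reverse it. Counts of calls depended on the setting. All genes called higher (44 by edgeR) numbered 5 with total counts alone, 160 by DESeq2 and 167 with no filter on low counts, and 1 to 221 with single libraries left out. All genes called lower (31) numbered 106 by DESeq2, 116 with no filter and 1 to 89 with single libraries left out. Large subunit genes called higher (1) numbered 0 with total counts alone, 8 by DESeq2, 2 by limma-voom, 6 with no filter and 0 to 6 with single libraries left out. Those called lower (0) numbered 0 to 1, the 1 being RpL3 without dsLacZ replicate 2. Without that library, an alternative chosen after seeing the data, 4 members in place of 2 were lower with no overlap. Why these counts differ was not tested.

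Of the 49 genes given with values, the direction reversed for 7, none of them called. With total counts alone RpL22 was at -0.023 and RpL38 at -0.016. RpL41 was at 0.0037 with DESeq2's size factors, 0.0028 by DESeq2, 0.0065 with no filter and 0.0033 with a replicate block. With single libraries left out RpL22 was at -0.23 to 0.42. RpL7 ranged from -0.0025 to 0.090, RpL24-like from -0.016 to 0.23 and RpLP0-like from -0.24 to 0.012. RpL36 ranged from -0.037 to 0.17, RpL38 from -0.11 to 0.15 and RpL41 from -0.11 to 0.14. Of 686 values for these genes, 642 kept direction and side of the threshold, 19 gained a call and 7 lost one.

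Same-numbered libraries did not deviate together (correlations -0.04, -0.21 and -0.11, where all pairs across groups ran from -0.21 to 0.21). With 3 libraries per group such correlations cannot decide whether the numbers mark pairs, and the labels do not state it. With a replicate block, all genes called were 0 higher and 1 lower, large subunit genes 0 higher, and RpL17 had a log2 fold change of 0.51 (edgeR adjusted p = 0.224). The search for initiator letters in promoters was not run here. Depth limits the 4 genes at 0 counts to the floor given, for counting error alone.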
